A study of Mus musculus with 6 samples.

Results

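The cytosolic ribosomal protein genes encode the proteins of the ribosome that works outside the mitochondria. They were followed here in luminal cells of the mouse prostate. Members were taken by symbol (Rpl or Rps with a number, Rplp0 to Rplp2, and Rpsa, without the Rps6k kinases), and 84 of the 24346 gene symbols in the tables matched, 51 of the large and 33 of the small subunit. They hold 103 of 34535 listed transcripts. The RNA came from sorted luminal cells of C57BL/6 mice aged 4 months. The 3 CSF1 libraries (PB in the titles) are from mice that carry mouse Csf-1 under the rat probasin promoter, a promoter active in the prostate epithelium, and the 3 WT libraries are from wild-type littermates. Both groups carry the numbers 3, 5 and 8. The labels do not state whether each library is 1 animal, nor the transgenic line or the sort markers, so the spread behind each p-value is that of these libraries and may be technical.

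A ribosome has a small subunit, which reads the mRNA, and a large subunit, which joins the amino acids. Most of its proteins are present in a single copy, apart from the stalk proteins. Their synthesis is coordinated, and many of their mRNAs begin with a C followed by a run of pyrimidines at the 5′ end, the terminal oligopyrimidine tract, through which mTOR signalling and the protein LARP1 control their translation. That control acts chiefly on translation, which RNA levels do not measure. Secretory epithelium such as the prostate's makes large amounts of protein and needs many ribosomes.

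Annotated start sites of the members were searched for such a run nearby. The search does not require the run to begin at the first base of the mRNA, so it does not show which members have the tract. Of the 84 members, 63 matched RefSeq's table of start sites (GRCm38.p6). A C followed by at least 4 bases that are each C or T was searched on the gene's own strand, with the C at most 10 bases before or after the annotated start. At the listed start nearest that of the gene's leading transcript, it was present in 35 of 63 members (55.6%), against 31.0% of 8272 matched genes that were tested. It was found there in 21 of 39 large and 14 of 24 small subunit members. Some genes have several listed starts, and with any of them counted the shares were 61.9% of the members, 35.9% of the matched tested genes and 33.3% of all 27025 genes in that table. The windows below run from 15 bases before to 15 bases after that start, on the gene's strand, with the longest such run in capitals. The first 9 are the matched members that fell in CSF1 by the test given further on, and the last 2, Rpl27a and Rpl15, did not pass and show how long the run can be. The Rpl38 window lies 201 bases before the start of its leading transcript in the tables.
Rpl38, chr11:114668565-114668594, plus strand: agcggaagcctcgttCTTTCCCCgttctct
Rplp2, chr7:141447636-141447665, plus strand: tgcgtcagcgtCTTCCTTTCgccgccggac
Rps21, chr2:180257364-180257393, plus strand: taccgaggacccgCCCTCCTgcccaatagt
Rpl35, chr2:39005117-39005146, minus strand: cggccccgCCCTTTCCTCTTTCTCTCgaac
Rpl36a, chrX:134585639-134585668, plus strand: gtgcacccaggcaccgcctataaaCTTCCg
Rpl10, chrX:74270801-74270830, plus strand: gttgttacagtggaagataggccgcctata
Rpl41, chr10:128549154-128549183, minus strand: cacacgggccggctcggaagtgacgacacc
Rpl37, chr15:5116598-5116627, plus strand: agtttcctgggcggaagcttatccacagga
Rpl4, chr9:64173372-64173401, plus strand: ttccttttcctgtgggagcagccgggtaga
Rpl27a, chr7:109519180-109519209, plus strand: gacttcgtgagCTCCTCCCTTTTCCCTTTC
Rpl15, chr14:18270972-18271001, minus strand: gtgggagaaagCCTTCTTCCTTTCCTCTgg
The run was found near the start in 5 of the 9 members that fell, with its first C between positions -7 (Rpl35) and 10 (Rpl36a). In Rpl10, Rpl41, Rpl37 and Rpl4 no such run began within 10 bases of the start. In Rpl4 a run began further before it, outside the search. The 33 tested members with the run found near that start had a median log2 change of -0.23 and the 27 without it one of -0.21.

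All values are FPKM, fragments counted per kilobase of transcript and scaled to the library's mapped fragments, summed over a gene's transcripts. Of the 84 members, 81 reached an average of 1 FPKM or more and were tested, 48 large and 33 small. The other 3 are paralogues used mainly in other tissues. Rpl10l, a testis gene, was listed at 0 in all 6 libraries. Rpl3l, a gene of heart and skeletal muscle, had 0.0271 and 0.0446 FPKM listed for WT replicates 3 and 8, and 0 for the other 4 libraries. Rpl39l, also a testis gene, was listed at 0.373 FPKM in WT replicate 8, at 0.310 FPKM in CSF1 replicate 8 and at 0 elsewhere.

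The libraries differ in ways that touch these values. Coverage per FPKM, which grows with sequencing depth, ran from 2.72 to 3.50 for WT and from 4.17 to 5.01 for CSF1, so depth and genotype cannot be told apart. Of 14 luminal markers, 6 rose, 1 fell and 7 did not pass, and the defining keratins Krt8 and Krt18 averaged 1335 and 2279 FPKM in WT, against 1724 and 2132 FPKM for CSF1. Of 12 secretory genes 9 were tested, 1 rose and 2 fell, with a median log2 change of -0.91. The sum of these 9 overlapped (41489 to 93216 FPKM in WT, 16299 to 50838 in CSF1). The other 3 had a status other than OK in some library and are not in the sum. Markers of other cells had higher sums in CSF1, with no overlap. All 16 macrophage markers rose, with a summed level of 28.5 to 138 FPKM in WT and 916 to 3681 FPKM in CSF1. Of 10 basal markers 8 rose (66.4 to 81.1 FPKM summed in WT, 567 to 899 in CSF1), and of 11 stromal markers 9 rose (103 to 114 FPKM in WT, 530 to 794 in CSF1). Of 12 lymphocyte markers 4 rose (1.26 to 2.29 FPKM, 11.2 to 39.2 FPKM), of 8 endothelial markers 3 rose (1.117 to 2.54 FPKM, 12.02 to 18.2 FPKM), and of 5 red blood cell genes 3 were tested and none passed (64.7 to 336 FPKM, 404 to 3772 FPKM). Their part in the ribosomal protein values was not tested, and fewer cells of a type cannot be told apart from less RNA per cell.

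**Figure D1:**
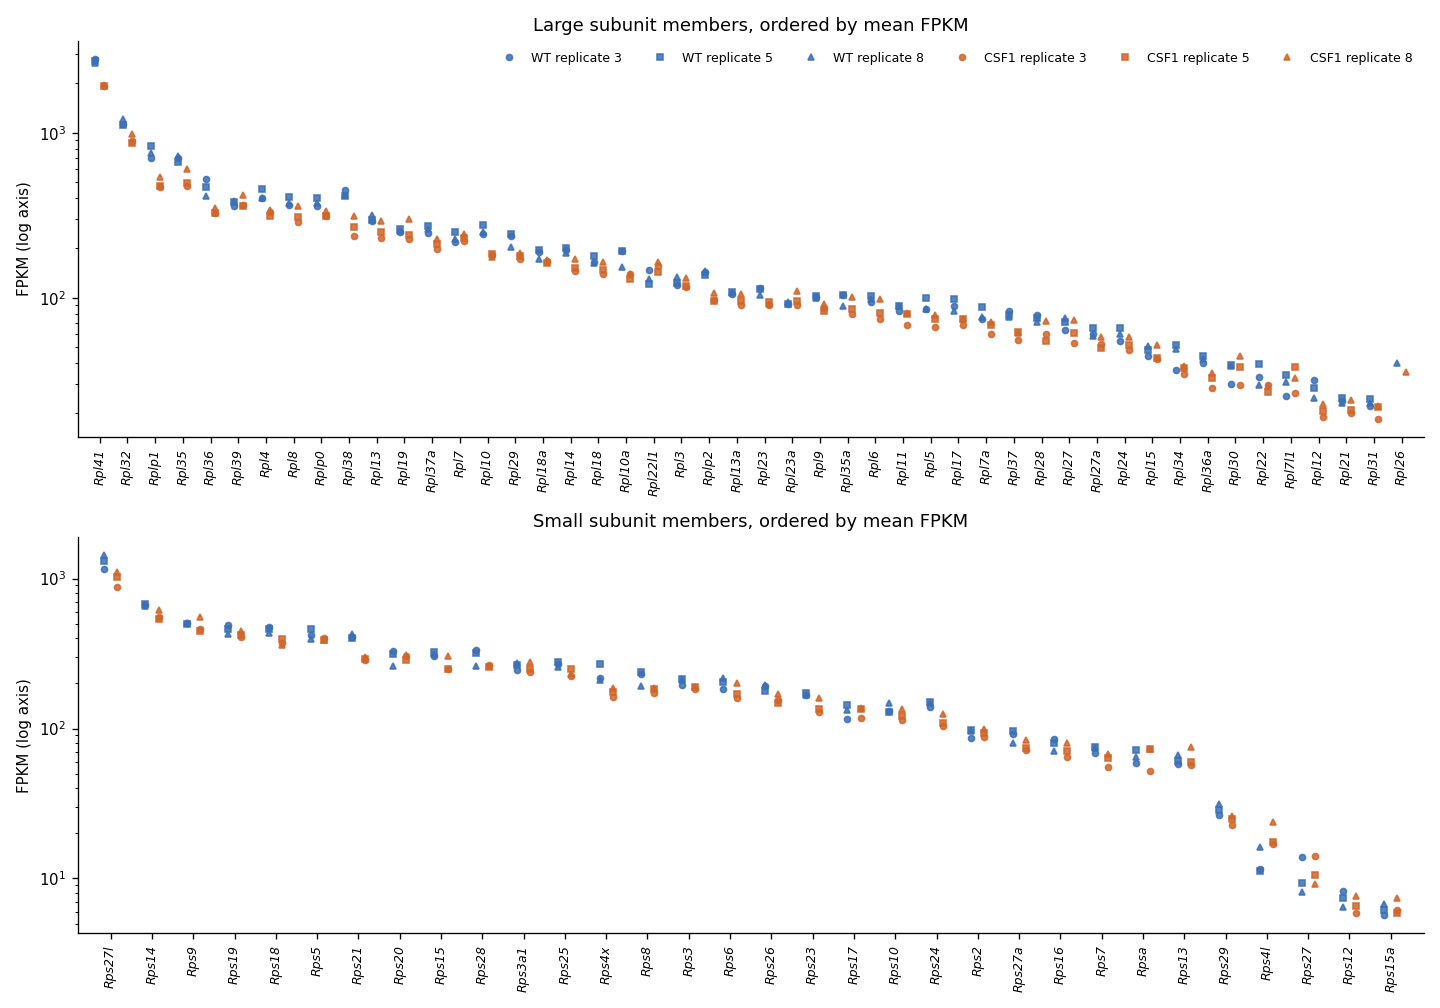
FPKM of 80 of the 81 tested members (log axis) in the 6 libraries, with WT in blue and CSF1 in orange, a symbol for each replicate number, and members ordered by mean within the large (top) and the small subunit (bottom). Rpl41 and Rps27l lead their subunits, and values of 0 for Rpl26 in 4 libraries cannot be drawn on this axis.

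Levels of the members spread widely. Mean WT levels ran from 6.19 to 2716 FPKM with a median of 142 FPKM, and CSF1 means ran from 6.46 to 1927 FPKM with a median of 129 FPKM. Rpl41, which encodes a very short basic peptide of the large subunit, was the highest in every library and alone made 22.0% to 23.4% of the summed large subunit FPKM in WT and 19.1% to 21.1% in CSF1. Rps27l, a paralogue of Rps27 and a known p53 target, led the small subunit with 14.2% to 17.5% of its FPKM in WT and 12.8% to 14.4% in CSF1. After Rpl41, the large subunit members with the highest mean over all libraries were Rpl32, Rplp1 and Rpl35. Of these, Rpl32 measured 1124, 1120.1 and 1205 FPKM across WT, against 887, 869 and 988 FPKM across CSF1. The groups did not overlap (log2 change -0.33 ± 0.12, limma adjusted p = 0.0695). With the replicate block, Rpl32 was among 13 members that fell, where 8.13% of all tested genes fell. In the small subunit Rps14 and Rps9 came next after Rps27l. Rps14 did not overlap between groups (667 ± 12.7 FPKM in WT, 568 ± 40.3 in CSF1, limma adjusted p = 0.166), while Rps9 did, with a log2 change of -0.05.

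The order of the members was nearly the same in all 6 libraries. Spearman's rho between 2 libraries over the 81 members was at least 0.992 within a group and at least 0.988 between groups, and 0.994 between the group means. No member moved more than 7 ranks between the group means. These correlations run over genes measured in the same libraries and share transcript length and mappability, so they describe the profile only. Members with longer leading transcripts (the transcript with the highest mean) tended to lower FPKM (rho = -0.32, n = 81 members).

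The question put by the design is how forced expression of CSF1, a macrophage growth factor, changes the luminal cells. Among the ribosomal protein genes, 11 of 81 fell and none rose (limma on log2(FPKM + 1), adjusted p over all 10951 tested genes, threshold 0.05). Over all tested genes 7.47% fell and 24.9% rose, 32.4% in all. Of the 11 that fell, 10 belong to the large subunit (10 of 48) and 1 to the small (1 of 33). Whether the subunits differ in this was not tested. Before adjustment, 23 members had a lower and 1 a higher value at p under 0.05, where 11.2% of all genes were lower. Most differences were small, and the members lay close together. The median log2 change was -0.21 over the 81 members, with the middle 50% of members between -0.30 and -0.07, against a median of 0.17 over all tested genes, and 79 of 81 members lay below that median of all genes.

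In 41 of 81 members every CSF1 library lay below every WT library, and in 1 (Rps4l) every CSF1 library lay above. Over all tested genes these shares were 13.1% and 34.7%. The number that passed depended on how libraries were scaled to each other. With FPKM as deposited the median gene was higher in CSF1. Rescaling every library to an equal sum kept that shift (median of all genes 0.18). There 14 members fell and 1 rose, and 7.44% of all tested genes fell. The 3 other scalings moved the shift to about 0 or, with quantile normalization, below 0. The number of members that fell was then 52 with median-ratio scaling (16.1% of all tested genes fell), 50 when FPKM was rescaled to genes outside the 5 most abundant (12.9%) and 53 with quantile normalization (21.6%). Under these 3 scalings no member rose, the median change of all genes was -0.03, 0.00 and -0.16, and the median of the members was 0.41, 0.41 and 0.24 below it, against 0.39 with FPKM as deposited. The 11 members that fell were among the members that fell under all 3.

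**Figure D2:**
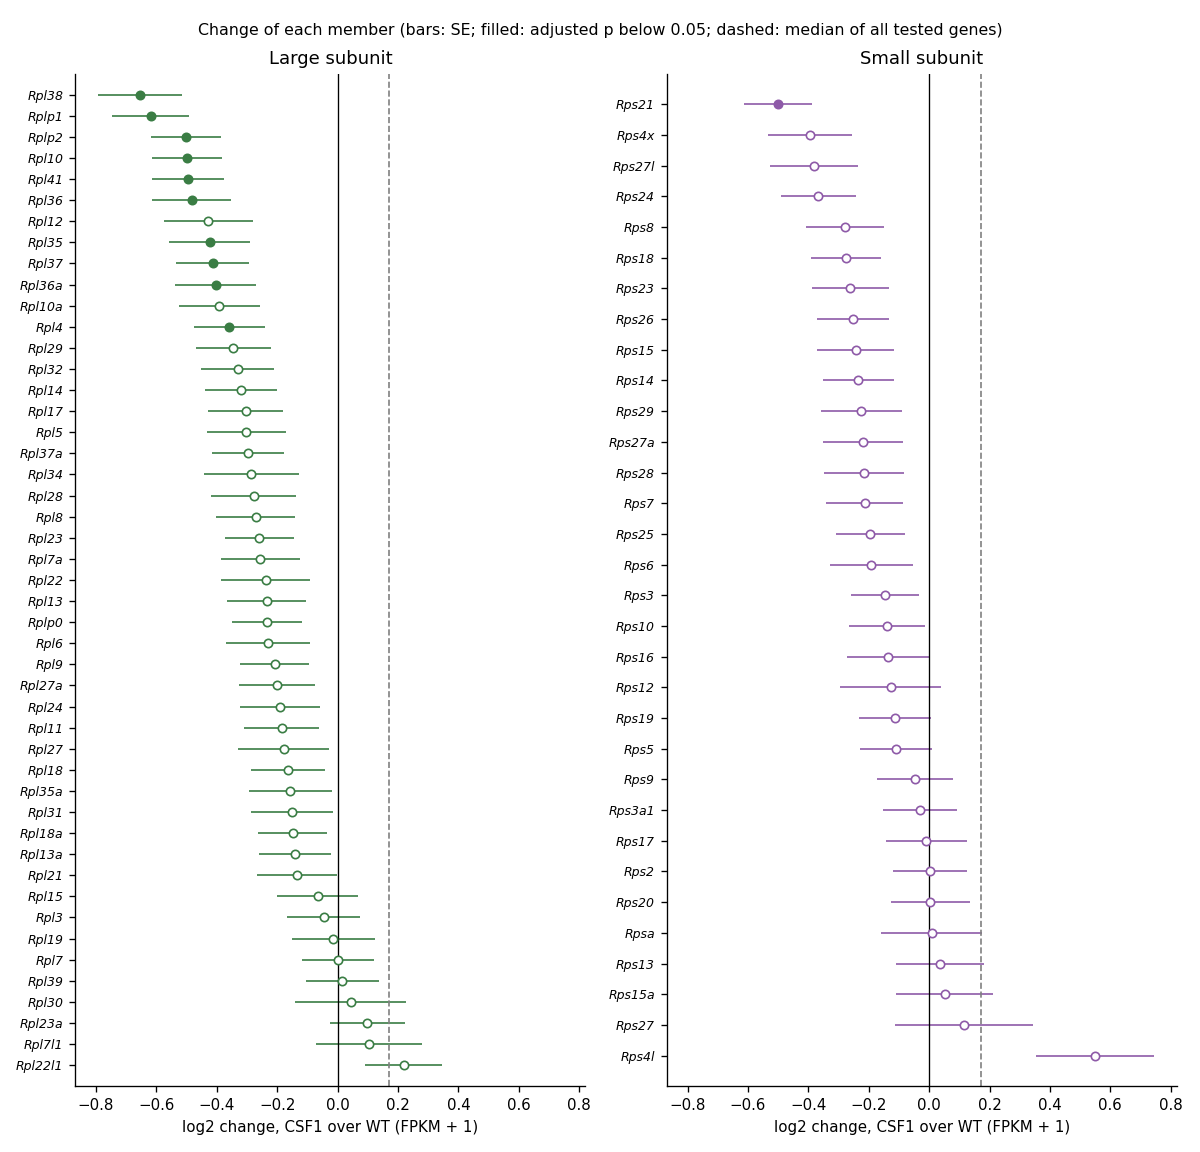
log2 change of CSF1 over WT on the log2(FPKM + 1) scale for 79 tested members, large subunit left and small subunit right, with the SE as bars, filled circles for members with adjusted p below 0.05 and a dashed line at the median of all tested genes (0.17). Nearly all members lie left of that line, and 10 of the 11 filled circles belong to the large subunit. Rpl26, listed at 0 in 4 libraries, is left out.

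The stalk of the large subunit, a flexible arm that recruits the elongation factors, held 2 of the members that fell. It is built on Rplp0, which carries pairs of the small acidic proteins Rplp1 and Rplp2. Rplp1 (chr9:61913283-61914510, GRCm38) measured 702, 829 and 750 FPKM across WT replicates 3, 5 and 8, against 469, 473 and 541 FPKM across CSF1 (same order throughout). All 3 CSF1 libraries were below all 3 WT libraries, and the mean fell by 35.0%, from 760 ± 64.6 FPKM to 494 ± 40.2 FPKM (mean ± SD, n = 3 per group, with a log2 change of -0.62 ± 0.13 SE and limma adjusted p = 0.00690). Rplp2 measured 143, 137 and 146 FPKM across WT, against 97.4, 96.1 and 107 FPKM across CSF1. These did not overlap either (log2 change -0.50 ± 0.12, limma adjusted p = 0.0107). For Rplp0, the base of the stalk, the WT values were 357.8, 400 and 377 FPKM and the CSF1 values 313, 314 and 337 FPKM. The groups were apart but the change was smaller and did not pass (log2 change -0.23 ± 0.12, limma adjusted p = 0.161).

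Rpl38, a small protein at the subunit's surface that is known for its part in translating Hox mRNAs, had the most negative log2 change of all members with FPKM as deposited. It measured 447, 411 and 422 FPKM across WT, against 236, 268 and 314 FPKM across CSF1. The mean fell by 36.1%, from 427 ± 18.3 FPKM to 273 ± 39.4 FPKM (log2 change -0.65 ± 0.14, limma adjusted p = 0.00756). Rpl38 has 3 listed transcripts, and each was lower in all 3 CSF1 libraries. The shortest, of 285 bases, was the leading transcript in every library, with 45.2% to 51.0% of the gene's FPKM in WT and 43.3% to 48.1% in CSF1.

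Rps21, on the solvent side of the small subunit, was the single small subunit member that fell. It measured 406, 403 and 429 FPKM across WT, against 284, 289 and 301 FPKM across CSF1, with a wide gap between the groups (mean fall 29.4%, log2 change -0.50 ± 0.11, limma adjusted p = 0.00940). Rpl41 measured 2809, 2709 and 2630 FPKM across WT, against 1915, 1910 and 1956 FPKM across CSF1. Its fall of 29.1% (log2 change -0.49 ± 0.12, limma adjusted p = 0.0133) was 789 FPKM in absolute terms. Rpl10, an X-linked gene whose protein joins the large subunit late in assembly, measured 242, 277 and 251 FPKM across WT, against 182, 185 and 177 FPKM across CSF1 (log2 change -0.50 ± 0.12, limma adjusted p = 0.0114). The groups did not overlap for either gene.

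The remaining 5 that fell passed by less. Rpl36 fell from 469 ± 56.2 to 334 ± 13.8 FPKM (limma adjusted p = 0.0223) and Rpl37 from 79.6 ± 3.71 to 59.5 ± 3.87 FPKM (limma adjusted p = 0.0297). Rpl35, which lies at the exit of the tunnel for the growing chain, fell from 699 ± 30.8 to 524 ± 68.7 FPKM (limma adjusted p = 0.0417). Exons of Rpl35 overlap those of Arpc5l and Wdr38 on the opposite strand in the GENCODE annotation, and the library kits do not mark strand. Rpl36a fell from 42.5 ± 2.03 to 31.98 ± 3.33 FPKM (limma adjusted p = 0.0470). Rpl4, whose loop lines the exit tunnel, fell from 421 ± 31.2 to 328 ± 14.2 FPKM (limma adjusted p = 0.0493). In each of these 5 genes the 3 CSF1 libraries were below the 3 WT libraries. With the replicate number as a block Rpl4 did not pass (limma adjusted p = 0.0523), and it passed in 7 of 18 alternatives in all.

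Which members passed depended on single libraries. Rpl38, Rplp1, Rplp2 and Rps21 passed whichever 1 library was left out. Of 81 members, 7 fell without WT replicate 3, 4 without WT replicate 5 and 11 without WT replicate 8. Of all tested genes 7.7%, 4.32% and 4.77% fell there. Without CSF1 replicates 3, 5 and 8 in turn, 5, 5 and 11 members fell, beside 5.73%, 6.37% and 5.97% of all tested genes. Without replicate 3 or 5 of either group, the share of members that fell was thus close to that of all genes. The number of members that fell was 2 (Rplp1 and Rpl10) without both libraries numbered 3, and 12 without both numbered 8. There 5.41% and 4.45% of all tested genes fell. The number of members was 0 without both numbered 5, where 3.12% of all genes fell and 4 members were lower at an unadjusted limma p under 0.05.

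Members at the other end had values near or above their WT levels. Rps4l, a paralogue of the X-linked Rps4x, measured 11.6, 11.2 and 16.1 FPKM across WT, against 16.8, 17.5 and 23.9 FPKM across CSF1. Every CSF1 library lay above every WT library, but the gene did not pass (log2 change 0.55 ± 0.19, limma adjusted p = 0.0622). It did in 4 of 18 alternatives, among them the replicate block (limma adjusted p = 0.0184) and without WT replicate 8 (limma adjusted p = 0.0351). The log2 change of Rps4l was smaller and did not pass with quantile normalization (0.26), median-ratio scaling (0.33) or rescaling outside the 5 most abundant genes (0.36). The sister gene Rps4x measured 217, 268 and 209 FPKM across WT, against 163, 175 and 187 FPKM across CSF1 (log2 change -0.39 ± 0.14, limma adjusted p = 0.0586). Rps4l was therefore at 4.20% to 7.69% of Rps4x in WT and at 10.05% to 12.8% in CSF1, ranges that did not overlap.

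Rpl22l1 and Rpl22 encode paralogous RNA-binding proteins of the large subunit that can take each other's place. Rpl22l1 was the higher of the pair in every library, with 148, 121 and 130 FPKM across WT, against 156, 144 and 164 FPKM across CSF1 (log2 change 0.22 ± 0.13, limma adjusted p = 0.234; -0.01 with median-ratio scaling). Rpl22 measured 32.9, 39.8 and 29.6 FPKM across WT, against 29.7, 26.8 and 29.1 FPKM across CSF1 (limma adjusted p = 0.257). Their ratio, which does not depend on library scaling, ran from 3.03 to 4.50 across WT and from 5.24 to 5.62 across CSF1. These ratios were set up after the values were seen and have no test. Rpl22l1 exons overlap those of Gm33051 on the opposite strand in the GENCODE annotation, and the library kits do not mark strand.

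Rpl3 and Rpl39, the sisters of Rpl3l and Rpl39l, had overlapping groups and log2 changes of -0.05 and 0.02. Of the other paralogue pairs, Rpl7l1, which takes part in assembly of the large subunit, was at 11.7% to 13.6% of Rpl7 in WT and at 11.99% to 16.5% in CSF1, with overlap (log2 changes 0.10 for Rpl7l1 and 0.00 for Rpl7). Rps27l measured 1159, 1313 and 1440 FPKM across WT, against 880, 1025 and 1099 FPKM across CSF1. The groups did not overlap, and the change did not pass (log2 change -0.38 ± 0.14, limma adjusted p = 0.0768), though it did with the replicate block (limma adjusted p = 0.0281). Rps27 itself was listed at 8.14 to 14.2 FPKM over the 6 libraries, all of it on its non-coding transcript, and its protein-coding transcript was listed at 0 in all 6. A value of 0 in these tables can be a failed estimate, so the ratio of this pair is not interpreted. Rpsa, the protein also known as the laminin receptor, measured 59.0, 72.4 and 64.1 FPKM across WT, against 52.2, 73.1 and 72.8 FPKM across CSF1 (log2 change 0.01 ± 0.17, limma adjusted p = 0.980), and the sign of this change turned in 9 of 18 alternatives.

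**Figure D3:**
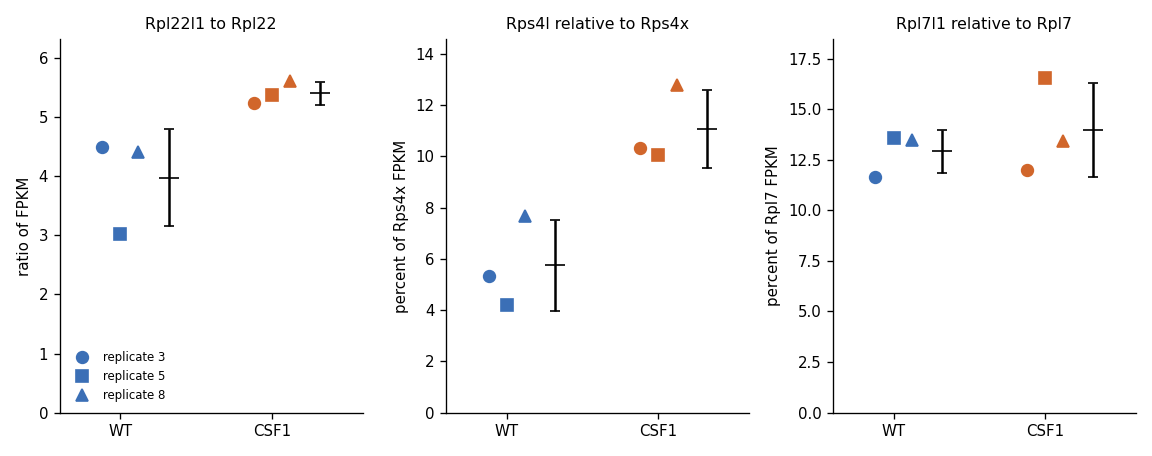
Ratio of the FPKM of paralogue pairs in each library (Rpl22l1 to Rpl22, and Rps4l and Rpl7l1 as a percent of Rps4x and Rpl7), with the mean and SD of each group in black and symbols for the replicate numbers. The CSF1 libraries lie above the WT libraries for Rpl22l1 to Rpl22 and for Rps4l to Rps4x, and the groups overlap for Rpl7l1 to Rpl7.

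Rpl26, a large subunit protein that also binds p53 mRNA, was listed at 0 in the 4 libraries numbered 3 and 5, while WT and CSF1 replicate 8 had 40.3 and 35.7 FPKM. The tables mark its status as OK in all 6 libraries, and a 0 here can still be a failed estimate, so only the listed values are given. Its log2 change has an SE of 1.72.

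Summed over the members, WT libraries were at 20142, 20778 and 20116 FPKM and CSF1 libraries at 15943, 16387 and 17939 FPKM. All CSF1 sums lay below all WT sums, and the mean was 17.6% lower. As a share of all FPKM the members made 3.94%, 4.14% and 3.64% in WT and 2.85%, 3.02% and 3.17% in CSF1 replicates 3, 5 and 8. When the 5 most abundant genes of each library were left out of the total, the shares were 4.57% to 5.24% in WT and 3.55% to 3.57% in CSF1. No test was made of these sums, whose members were chosen together.

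The large subunit's sum was 21.0% lower in CSF1 (12070 ± 198 FPKM in WT, 9532 ± 619 in CSF1) and the small subunit's 12.7% lower (8276 ± 186 and 7224 ± 432). The ratio of large to small was 1.48, 1.45 and 1.45 in WT and 1.32, 1.30 and 1.33 in CSF1, a mean difference of -0.14 that was larger than the spread between libraries of a group (SD 0.015 in WT and 0.014 in CSF1). This ratio rests much on the most abundant genes. Without Rpl41 it was 1.13 in all 3 WT libraries and 1.05, 1.03 and 1.08 in CSF1, a difference of -0.08. Without the members whose leading transcript is under 500 bases the difference was -0.08 too, from 1.04 ± 0.030 to 0.963 ± 0.014. The median levels of the subunits were not apart in the same way: the median log2(FPKM + 1) of large members minus that of small members was -0.84 ± 0.04 in WT and -0.80 ± 0.01 in CSF1, with overlapping libraries. Changes per gene went the way of the ratio, with a median log2 change of -0.24 for the 48 large and -0.15 for the 33 small subunit members. This difference was not tested.

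**Figure D4:**
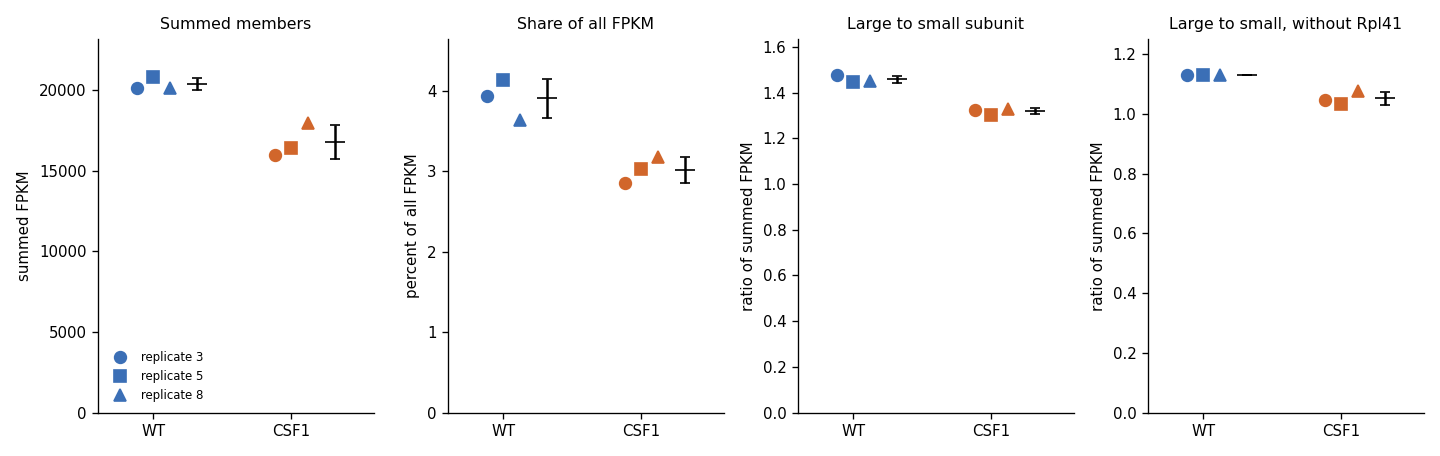
Summed FPKM of the members, their share of all FPKM, the ratio of large to small subunit sums, and that ratio without Rpl41, for each library, with the mean and SD of each group in black. The CSF1 libraries lie below the WT libraries in all 4 panels.

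The change differed with transcript length. Of 17 tested members with a leading transcript under 500 bases, 8 fell (47.1%), with a median log2 change of -0.38. Of 33 members of 500 to under 800 bases 1 fell (3.03%, median -0.19), and of 31 members of 800 bases or more 2 fell (6.45%, median -0.20). Short genes outside the family showed the same direction: 224 tested genes with a leading transcript under 500 bases that are no members had a median of -0.30, and 21.4% of them fell. Over all tested genes the medians of the 3 length classes were -0.30, -0.05 and 0.19, and the shares that fell were 23.2%, 16.2% and 6.65%. The leading transcripts of the members had a median length of 703 bases (285 to 5134). Level went along with it as well: of 19 members with a mean of at least 300 FPKM 7 fell (36.8%). Of 28 between 100 and 300 FPKM 2 fell (7.14%), and of 34 below 100 FPKM 2 fell (5.88%). Of all tested genes 7.47% fell, and of those averaging 100 FPKM or more, 16.8% fell. Shares of all genes in the same level classes were not computed. The part of length, of level and of the library preparation in the change was not tested.

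**Figure D5:**
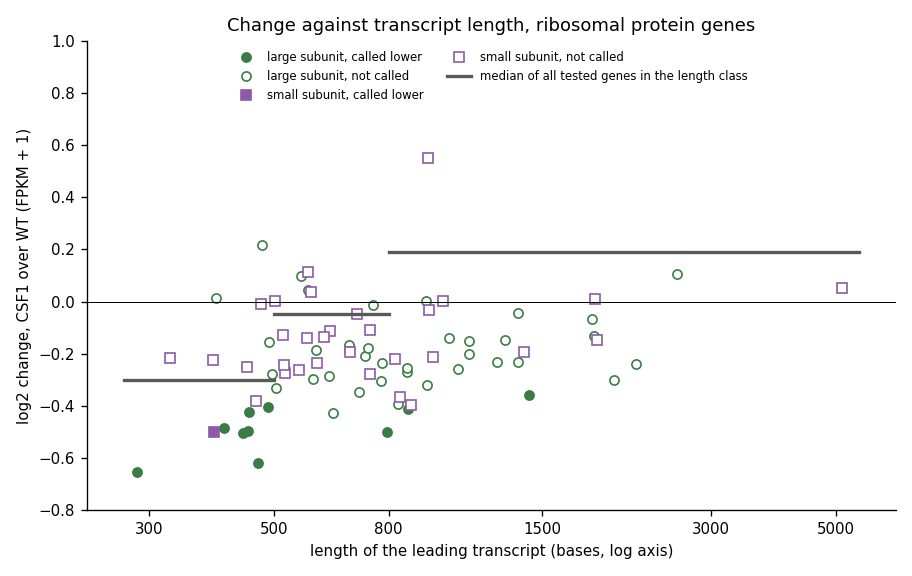
log2 change of CSF1 over WT (log2(FPKM + 1) scale) against the length of the leading transcript (log axis) for 79 tested members, with circles for the large and squares for the small subunit, filled where adjusted p is below 0.05, and grey lines at the median of all tested genes in 3 length classes. Of the 11 filled symbols, 8 lie below 500 bases, where the median of all genes is also below 0 (-0.30).

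Some ribosomal protein genes have symbols outside the pattern. Of 6 listed, 5 were in the tables and tested, 2 fell and 3 did not pass, with a median log2 change of -0.28. Rpl36al, a copy of Rpl36a that was much the more abundant of the pair, measured 1447, 1569 and 1536 FPKM across WT, against 1099.7, 1103.8 and 1195 FPKM across CSF1 (log2 change -0.42 ± 0.12, limma adjusted p = 0.0266). Gnb2l1, the gene of the small subunit scaffold RACK1, was at 258 ± 24.9 FPKM in WT and 255 ± 29.3 FPKM in CSF1 (limma adjusted p = 0.924).

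For the lists of the wider translation machinery, the shares over all tested genes were 24.9% that rose and 7.47% that fell, and no list was tested against them. Of 11 elongation factor and related genes, 1 fell and 10 did not pass (median -0.06). The one that fell, Eef2, whose protein moves the ribosome along the mRNA, measured 263, 314 and 264 FPKM across WT, against 194, 183 and 184 FPKM across CSF1 (log2 change -0.58 ± 0.12, limma adjusted p = 0.00820). Of 29 initiation factor genes, 3 rose, 1 fell and 25 did not pass (median -0.04). Eif6, which keeps free large subunits from joining small ones, rose from 65.8 ± 6.51 to 152 ± 65.5 FPKM (limma adjusted p = 0.0107), with CSF1 replicate 8 at 228 FPKM far above the other 2 at 112 and 117 FPKM. Eif4e, the cap-binding factor, rose from 36.4 ± 2.03 to 53.5 ± 4.63 FPKM (limma adjusted p = 0.0123), and Eif5b, which helps the subunits join, fell from 21.4 ± 2.33 to 12.8 ± 1.87 FPKM (limma adjusted p = 0.0099).

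Genes that build ribosomes had a median change 0.12 above that of all genes, while that of the ribosomal proteins lay 0.39 below it. Other scalings were not run for these lists. Of 48 tested ribosome biogenesis genes (52 listed, 50 in the tables), 8 rose, 1 fell and 39 did not pass. The share that rose, 8 of 48, was below the 24.9% of all tested genes although the median was above. Their median log2 change was 0.29, against -0.21 for the ribosomal proteins and 0.17 for all genes. Tcof1, which acts in rRNA gene transcription, rose from 2.19 ± 0.259 to 4.47 ± 0.433 FPKM (limma adjusted p = 0.0095). Nop58, a core protein of box C/D small nucleolar particles, rose from 45.8 ± 4.68 to 68.5 ± 2.63 FPKM (limma adjusted p = 0.00973). The one that fell, Nop10, a small protein of the box H/ACA particles, went from 419 ± 24.97 to 327 ± 17.2 FPKM (limma adjusted p = 0.0491). Of 23 tested genes of RNA polymerases I and III and their factors, 1 rose (Polr1c, limma adjusted p = 0.0231), none fell and 22 did not pass, with a median of 0.18.

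Among 22 tested genes of a list of regulators, which holds general regulators of translation and a repressor of RNA polymerase III, 2 rose, 2 fell and 18 did not pass (median 0.01). Eif4ebp1, an mTOR target that holds back the cap-binding factor, measured 411, 501 and 594 FPKM across WT, against 216, 286 and 302 FPKM across CSF1 (log2 change -0.90 ± 0.18, limma adjusted p = 0.0061). Pdcd4, an inhibitor of the initiation helicase, fell from 71.3 ± 3.89 to 34.1 ± 7.92 FPKM (limma adjusted p = 0.00249). Maf1, a repressor of RNA polymerase III, rose from 22.1 ± 0.702 to 37.3 ± 1.22 FPKM (limma adjusted p = 0.0023), and Eif2ak2, an interferon-induced kinase that halts initiation, rose from 2.18 ± 0.310 to 4.73 ± 0.676 FPKM (limma adjusted p = 0.0080).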

How the data were processed

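RNA of 3 WT and 3 CSF1 libraries was profiled. Reverse transcription used SMART-Seq v4 reagents with random and poly(dT) primers, per the labels' protocols. Per the submitters' processing notes, bcl2fastq 1.8.3, TopHat and Cufflinks were used with mm10. The authors deposited 1 table per library, with FPKM per RefSeq transcript per the file headers. The coverage column that the authors deposited holds a signal, reads per base of each transcript. Fragment totals are not given, so depth is known only relatively, from coverage per FPKM.

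FPKM was summed per symbol. The 9 genes with a status other than OK in any library, none of them a member, were left out of the tests. Genes averaging 1 FPKM or more were tested on log2(FPKM + 1) with limma 3.58.1 in R 4.3.3 (intensity trend, two-sided, Benjamini-Hochberg over all tested genes, threshold 0.05). The same fit was run on simulated data with equal noise in all genes and no shift between libraries, a simpler setting than these data. Libraries with the same number deviated together (correlations over genes of 0.26, 0.11 and 0.18 for numbers 3, 5 and 8), so they were treated as paired in an alternative with the number as a block. Pseudocounts, filters, scalings, array weights, transcript choice and left-out libraries were the other alternatives. The members and lists were chosen with earlier results of these data known. Individually described are the members that passed, the 4 most abundant of each subunit, the stalk proteins, Rpsa, the paralogue pairs, members listed at 0, and at most 4 genes of each other list. A member and a gene of another list that this rule names are not reported here by name, and the member is not drawn.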

Additional observations from a re-analysis of the deposited data

How the results depend on the processing

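The counts of genes that rose and fell (2731 and 818) and of members that rose and fell (0 and 11) depend on scaling and on single libraries. With quantile normalization 1694 genes rose and 2362 fell. With a minimum mean of 5 FPKM 1761 rose, but 7195 genes were tested there, against 10951, and the share that rose was nearly the same. Median-ratio scaling gave 1762 genes that fell, and rescaling to genes outside the 5 most abundant gave 1412. Members that fell numbered 53, 52 and 50 under these 3 scalings and 30 with array weights. Of all tested genes 21.6%, 16.1%, 12.9% and 10% fell, in the same order. Called genes that were higher made 77.0% as deposited, and 41.8%, 53.6% and 59.7% under the 3 scalings. Rps4l was the 1 member that rose with the replicate block, with array weights, with an equal sum in every library, and (1) without both libraries numbered 8. With the replicate block 13 members fell, where 8.13% of all tested genes fell. Rpl32, Rps24 and Rps27l also passed there and Rpl4 did not. Apart from these and Rps4l, the block changed no member's call.

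Leaving out 1 library gave 2053 to 2489 genes that rose, 478 to 850 that fell, 0 to 1 members that rose and 4 to 11 that fell. The share of all tested genes that fell was 4.32% to 7.7% there. Genes that fell were 478 without WT replicate 5 and 526 without WT replicate 8. Without both libraries numbered 3 or 5, 2 and 0 members fell, beside 5.41% and 3.12% of all tested genes. The log2 ratio of the summed members was -0.28, and -0.25 to -0.33 without 1 library, -0.51 with median-ratio scaling and -0.48 when rescaled outside the 5 most abundant. The difference in large to small ratio was -0.14 (-0.144 to -0.130 without 1 library), -0.08 (-0.0781) without Rpl41, -0.12 without Rpl41 and Rps27l, -0.0752 without transcripts under 500 bases, and 0.041, of opposite sign, for medians of log2 values. These 4, median-ratio scaling of the sums and the pairs of left-out libraries were chosen after seeing the data.

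Rpsa turned sign with quantile normalization (-0.19), median-ratio scaling (-0.22), rescaling outside the 5 most abundant (-0.19), an equal sum (-0.010), array weights (-0.10), and without WT replicate 3 (-0.06), WT replicate 8 (-0.0017), CSF1 replicate 5 (-0.072) or CSF1 replicate 8 (-0.070), and was between -0.072 and 0.17 when 1 library was left out. Rpl22l1 was at -0.012 with median-ratio scaling. The causes were not tested. With 3 libraries a group and unknown fragment totals, changes of the size seen here lie near the limit of the test: SEs of the members other than Rpl26 were 0.11 to 0.23. Reads shared with pseudogenes could not be separated, and the annotation lists 293 pseudogenes named after 61 members.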

Other observations

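Transcript choice was steady in most members. Of 11 members with more than 1 listed transcript, 9 had the same leading transcript in all 6 libraries. In Rps27a, which encodes ubiquitin fused to a small subunit protein, the transcript of 726 bases led in WT replicates 3 and 5 (58.5% and 52.3% of the gene's FPKM) and that of 821 bases led in WT replicate 8 and in all CSF1 libraries (51.1% to 63.8%). The other is Rpl3l, which was near 0. Rps24, known for splice forms that differ at the end of the protein, was listed on a single transcript in all WT libraries and CSF1 replicate 3, while CSF1 replicates 5 and 8 had 24.7% and 20.4% of its FPKM on a transcript of 857 bases. In all, 11 of the 103 member transcripts were listed at 0 in every library.

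Exons of 21 members overlap those of a protein-coding or long non-coding gene in GENCODE, 18 of them on the opposite strand. Among members that fell this holds for Rpl35 alone.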
